A study of Homo sapiens with 3 samples.

Results

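Expression of 10 genes that mark the secretory epithelium of the fallopian tube and serous ovarian cancer was followed in single OVCAR3 cells. The genes were chosen by symbol and all 10 were among the 36601 genes counted, each as 1 identifier. They are the transcription factors PAX8, SOX17, WT1 and EMX2, the secreted oviductal glycoprotein OVGP1, the surface antigens MUC16, MSLN and FOLR1, and the small secreted proteins WFDC2 and SLPI. OVCAR3 is a long-established human line derived from a high-grade serous ovarian carcinoma (HGSOC). Cultures were treated for 48 hours with the solvent DMSO, with 50 μM of the RAC1 inhibitor NSC23766 (RAC1i), or with 50 μM RAC1i together with 5 μM of the EZH2 inhibitor GSK126 (Combo). NSC23766 blocks activation of the small GTPase RAC1, and GSK126 blocks the histone methyltransferase EZH2. All groups were the same cell line grown without antibiotics, so normal secretory cells were not part of the comparison. Only 1 library represented each condition. Without replicates, conditions could not be tested against each other, and a difference between libraries cannot be told apart from a difference between cultures.

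The fallopian tube is lined by secretory and ciliated cells, and the secretory cells are regarded as a major source of HGSOC. PAX8 is the factor most used to recognise this lineage in pathology, and SOX17, WT1 and EMX2 are developmental regulators of the Müllerian duct and the urogenital tract from which the tube forms. MUC16 carries the CA125 epitope and WFDC2 is the antigen HE4, both serum markers of ovarian cancer, whereas OVGP1 is a product of differentiated oviductal secretory cells. The comparisons addressed whether the secretory identity of the line differed after RAC1 inhibition, and whether EZH2 inhibition added to it.

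Captured mRNA molecules, each carrying a unique molecular identifier (UMI), had been counted per gene and cell barcode. Cells were kept above 1000 genes and a complexity score (log genes over log UMIs) of 0.8, with mitochondrial genes taking no more than 20% of UMIs. Kept cells numbered 7531 (DMSO), 10215 (RAC1i) and 8239 (Combo), with median depths from 20989 to 26750 UMIs per cell. The median mitochondrial share was 5.60% of UMIs in DMSO cells but 1.66% in RAC1i and 1.58% in Combo cells. Pairs of libraries shared 15 to 23 kept cell barcodes. The cells are labelled as an epithelial line, and all 5 epithelial markers (EPCAM, KRT8, KRT18, KRT19 and CDH1) were above 10 CPM (UMIs of the gene per 1e+06 UMIs of the library) in every library. Their summed level was nevertheless lower after treatment, at 2290 CPM in DMSO, 1547 in RAC1i and 1663 in Combo. KRT19 went from 463 CPM in DMSO to 225 in RAC1i and 250.3 in Combo, and CDH1 from 47.1 to 22.9 and 19.6. EPCAM differed least, at 320, 274 and 302 CPM, and the ratios of KRT8 and KRT18 to DMSO lay between. More than 2-fold lower were 2 of the 5 in RAC1i and 1 in Combo, beside 24.6% and 22.8% of all genes tested. The part of these epithelial levels in the results was not tested. None of the markers of mesothelial, fibroblast, leukocyte or endothelial cells reached 10 CPM in any library. The summed level of the 6 leukocyte markers was 1.22 CPM in DMSO, 10.5 in RAC1i and 10.3 in Combo, of which the monocyte receptor gene CD14 made up 0.894, 7.62 and 7.50 CPM. Its part in the results was not tested.

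The genes lie on 8 chromosomes of GRCh38 (GENCODE 44). PAX8 is at chr2:113215997-113278921 on the minus strand, and SOX17 is a short gene of the plus strand. WT1, at chr11:32387775-32435564 (minus), and FOLR1, at chr11:72189558-72196323 (plus), share a chromosome but lie far apart. EMX2 is at chr10:117542445-117549546 (plus), OVGP1 at chr1:111414319-111427735 (minus), MUC16 at chr19:8848844-9010390 (minus) and MSLN at chr16:760734-768865 (plus). SLPI, at chr20:45252239-45254564 (minus), and WFDC2, at chr20:45469753-45481532 (plus), belong to the same cluster of genes that encode whey acidic protein (WAP) domains. PAX8, WT1, EMX2 and FOLR1 each overlap a long noncoding gene on the opposite strand, of which that at FOLR1 has no symbol and was at 0.00502 CPM or less in every library.

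Promoter sequences of RefSeq (GRCh38.p14) were taken for 5 of the 10 genes, PAX8, WT1, EMX2, MUC16 and WFDC2. SOX17 was left out of this search. The 250 bases before the start of PAX8, which was 6.54-fold lower under RAC1i, and of WFDC2, which was within 2-fold in every comparison, are shown as a pair of genes of the same lineage that differed in response. Both are read 5′ to 3′ on the strand of the gene, from chr2:113278922-113279171 (minus) and chr20:45469503-45469752 (plus), and capitals mark the motifs found on either strand.
PAX8: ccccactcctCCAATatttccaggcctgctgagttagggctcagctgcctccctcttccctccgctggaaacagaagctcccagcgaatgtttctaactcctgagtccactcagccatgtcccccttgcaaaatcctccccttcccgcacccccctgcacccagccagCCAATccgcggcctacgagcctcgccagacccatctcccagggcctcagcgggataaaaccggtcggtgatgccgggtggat
WFDC2: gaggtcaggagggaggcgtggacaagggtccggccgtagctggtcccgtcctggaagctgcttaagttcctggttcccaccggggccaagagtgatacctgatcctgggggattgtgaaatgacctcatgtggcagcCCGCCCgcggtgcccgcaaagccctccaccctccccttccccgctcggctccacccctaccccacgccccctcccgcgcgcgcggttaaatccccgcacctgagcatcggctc
The motifs searched were the CCAAT box (CCAAT), the GC box (GGGCGG), the TATA box (TATAAA), a homeodomain core (TAATTA) and a SOX core (AACAAT). The PAX8 stretch held 2 CCAAT boxes, a motif present in 32.0% of the 35116 promoters of the same length, and no GC box. The WFDC2 stretch held 1 GC box, present in 42.6% of promoters, and no CCAAT box. This contrast did not hold for other lower genes. The EMX2 window, which lies inside the gene as placed above, held 2 GC boxes and 1 CCAAT box. The first MUC16 window, which lies away from the gene as placed above, held 1 of each. The second MUC16 window, next to the start of that gene, held no GC box and no CCAAT box. The first WT1 window held 1 GC box and no CCAAT box. A link between motifs and response was not tested. Neither the PAX8 nor the WFDC2 stretch held the TATA box, the homeodomain core or the SOX core. These were in 10.7%, 4.35% and 8.98% of promoters, and no match says only that these letters are not in this window. The GC content was 61.6% for PAX8 and 67.2% for WFDC2 against a median of 58% over all promoters.

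Levels are CPM of the sum of a library's kept cells. Because each captured molecule is tagged at its 3′ end, CPM carries no term for gene length. The intervals given are exact at 95% and cover counting error only. RAC1i treatment was accompanied by lower levels of all 4 lineage transcription factors and all 3 surface antigens, by a higher level of OVGP1, and by nearly the same levels of SLPI and WFDC2.

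**Figure D1:**
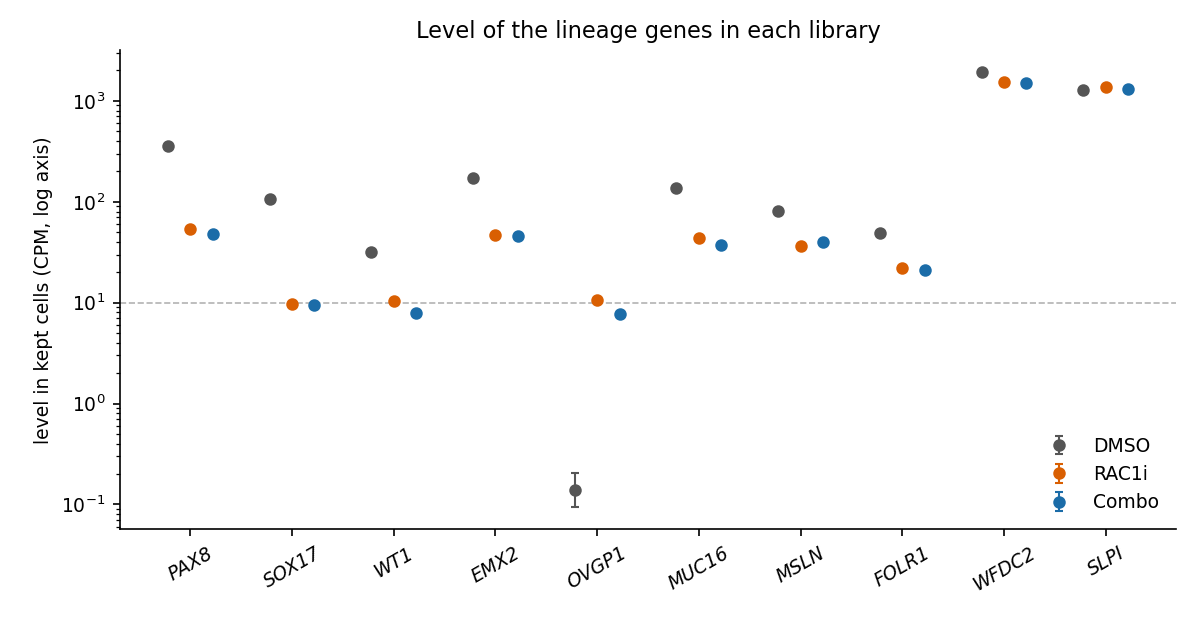
Level of each of the 10 genes in kept cells of the DMSO, RAC1i and Combo libraries, in CPM on a log axis, with exact 95% Poisson intervals (counting error, mostly smaller than the points) and a dashed line at 10 CPM. RAC1i and Combo points lie together in every gene, below DMSO for 8 genes and far above it for OVGP1, whereas SLPI is at nearly 1 level throughout.

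PAX8 was at 355 CPM in DMSO cells, 54.3 CPM in RAC1i cells and 47.8 CPM in Combo cells. It was 6.54-fold lower in RAC1i than in DMSO (95% interval 6.42 to 6.67). SOX17, which encodes a factor of endoderm and reproductive tract development, was at 106 CPM in DMSO, 9.63 in RAC1i and 9.49 in Combo. This was the largest difference among the lower genes, 11-fold for RAC1i (10.6 to 11.5). EMX2, a homeobox gene needed for the urogenital system, was at 173, 46.4 and 45.5 CPM, 3.72-fold lower in RAC1i (3.64 to 3.8). WT1, a zinc finger factor used to tell serous from other ovarian carcinomas, was at 32.0, 10.4 and 7.87 CPM, 3.07-fold lower in RAC1i (2.93 to 3.22). For each of the 4 factors the DMSO library was the high one, and the interval of its level did not overlap that of either treated library. At these counts a lack of overlap is not particular to them. The SLPI intervals of DMSO (1288 to 1298 CPM) and RAC1i (1353 to 1363 CPM) did not overlap either. The share of all genes without overlap was not counted.

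The long noncoding genes on the opposite strand of PAX8, WT1 and EMX2 were also lower. EMX2OS was at 67.2 CPM in DMSO and 6.58 in RAC1i, a 10.2-fold difference against 3.72-fold for EMX2. WT1-AS was at 20.3 and 1.72 CPM, an 11.8-fold difference against 3.07-fold for WT1. PAX8-AS1 was at 17.1 and 3.87 CPM, a 4.43-fold difference that was smaller than that of PAX8. Counting was run with the default settings of Cell Ranger, per the study's methods.

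OVGP1 was the gene with the opposite pattern. Only 28 UMIs were counted among 199063947 UMIs of DMSO cells (0.141 CPM, 0.0935 to 0.203), each in a different cell, against 2494 UMIs in RAC1i (10.6 CPM) and 1647 in Combo (7.74 CPM). The level was 75.5-fold higher in RAC1i (52.1 to 114) and 55.0-fold higher in Combo (37.9 to 83.1). Of all genes that reached 10 CPM in either library, 99.8% had a lower ratio of RAC1i to DMSO than OVGP1. OVGP1 entered this set only through RAC1i, the library where it was high, so this rank adds no separate support. In RAC1i cells its level was close to those of SOX17 (9.63 CPM) and WT1 (10.4 CPM) and below those of PAX8 and EMX2. Because the DMSO level rests on 28 UMIs, adding 1 CPM to both levels brought the log2 ratio from 6.24 to 3.35.

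The surface antigens were lower by smaller factors. MUC16, which encodes the very large transmembrane mucin of CA125, was at 137 CPM in DMSO, 43.3 in RAC1i and 37.6 in Combo, 3.16-fold lower in RAC1i (3.09 to 3.23). FOLR1, the folate receptor alpha that is a target of antibody-drug conjugates, was at 49.4, 21.9 and 21.2 CPM, 2.26-fold lower (2.18 to 2.34). MSLN, mesothelin, which binds MUC16, was at 81.0, 36.1 and 39.6 CPM, 2.25-fold lower (2.19 to 2.31). MSLN lay close to 2-fold, and its log2 ratio of -1.17 became -0.87 when the mean over cells of CPM was taken in place of the sum over cells. In Combo it went from -1.03 to between -0.94 and -0.74 under 4 alternatives.

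The secreted WAP proteins held their place among the most abundant transcripts. WFDC2 was at 1919 CPM in DMSO, 1528 in RAC1i and 1519.6 in Combo, 1.26-fold lower in RAC1i (1.25 to 1.26), and ranked 76, 103 and 102 among all genes by level. SLPI, an inhibitor of leukocyte elastase, was at 1293, 1358 and 1297 CPM, a ratio of 1.05 for RAC1i (1.04 to 1.06) and of 1.00 for Combo (0.997 to 1.01). These 2 genes made up most of the summed level of the 10 genes, which was 4146 CPM in DMSO, 3119 in RAC1i and 3033 in Combo.

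Many genes differed between these libraries, so the counts were read against all genes. Genes past 2-fold were counted among those that reached 10 CPM in at least 1 of the compared libraries. In RAC1i over DMSO, 7 of the 10 genes were past 2-fold lower against 24.6% of 8778 genes tested, and 1 was past 2-fold higher against 13.1%. The higher gene, OVGP1, reached 10 CPM only in RAC1i, so its call was favoured by the limit itself. In Combo over DMSO, 7 of the 9 genes at 10 CPM were past 2-fold lower against 22.8% of 8745 genes, and 0 were past 2-fold higher against 11.8%, since OVGP1 was below 10 CPM in both libraries. The median log2 ratio of all 10 genes was -1.40 in RAC1i and -1.54 in Combo over DMSO, and -1.62 and -1.86 for the 9 genes other than OVGP1, beside -0.20 and -0.18 over all genes tested. Both comparisons share the DMSO library and are not independent of each other. PAX8 and SOX17 were at the low end of the whole distribution, with 2.18% and 0.547% of genes at a lower ratio of RAC1i to DMSO, whereas MSLN and FOLR1 had 20.2% and 20.1% of genes below them. SOX17 reached 10 CPM only in DMSO, where it was high, so its rank adds no separate support. The limit also favoured the lower calls of SOX17 in both comparisons and of WT1 in Combo over DMSO.

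**Figure D2:**
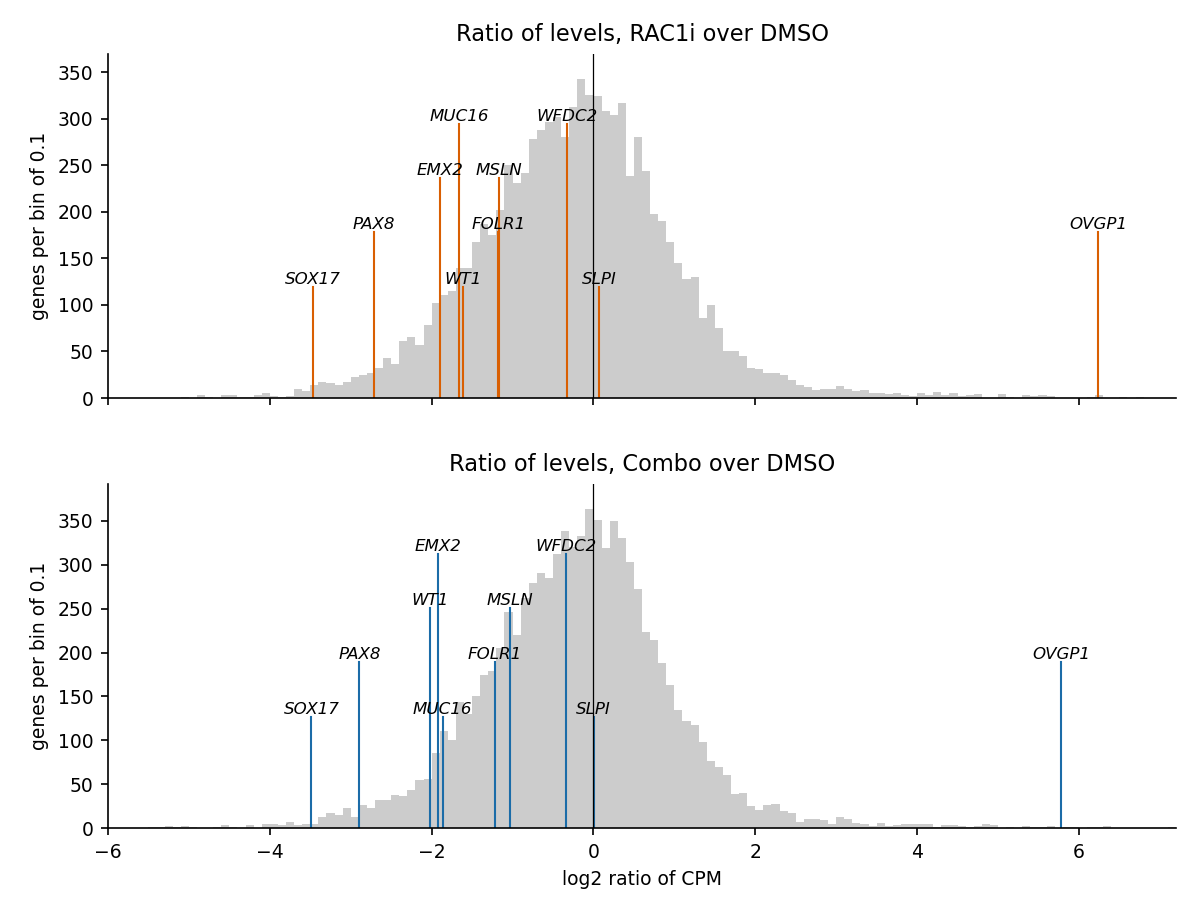
Histogram of the log2 ratio of CPM over genes that reached 10 CPM in either library, for RAC1i over DMSO (top) and Combo over DMSO (bottom), with the 10 genes marked by lines whose heights carry no value. SOX17 at -3.46 and PAX8 at -2.71 lie in the lower tail for RAC1i, OVGP1 at 6.24 lies beyond nearly all genes, and WFDC2 and SLPI lie in the middle. OVGP1 reached 10 CPM only in RAC1i and is marked in the lower panel without being in its histogram. SOX17 reached 10 CPM only in DMSO.

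Adding the EZH2 inhibitor to RAC1i was accompanied by small differences. In Combo over RAC1i, 0 of the 9 genes at 10 CPM were past 2-fold in either direction, beside 0.0269% of 7443 genes higher and 0.0134% lower. OVGP1 was 1.37-fold lower in Combo than in RAC1i (1.29 to 1.46) and WT1 1.33-fold lower (1.25 to 1.41). With few genes moving at all, 1.5% and 2.35% of genes had a lower ratio than these. Both genes reached 10 CPM only in RAC1i, the library where they were higher, so these ranks add no separate support. MUC16 was 1.15-fold lower (1.12 to 1.19), PAX8 1.13-fold lower (1.11 to 1.16) and MSLN 1.10-fold higher (1.07 to 1.13). For SOX17, EMX2 and FOLR1 the interval of the ratio included 1, from 0.928 to 1.05, from 0.954 to 1.01 and from 0.929 to 1.01. With 1 library per condition, the spread between cultures that these small differences would have to exceed was not measured.

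The same differences were seen as shares of cells with a UMI. To compare cells at equal depth, 5000 UMIs were drawn at random from each cell, which left 6725 DMSO, 9200 RAC1i and 7354 Combo cells and left out 806, 1015 and 885 shallower cells. PAX8 was detected in 76.7% of DMSO cells (75.7 to 77.7). In RAC1i this share was 18.2% (17.4 to 19.0) and in Combo 16.7% (15.9 to 17.6). The count per positive cell also differed, with a mean of 2.20 UMIs in DMSO and 1.38 in RAC1i. SOX17 was detected in 38.3%, 4.64% and 4.38% of cells, EMX2 in 54.9%, 19.8% and 20.2%, and WT1 in 13.8%, 5.25% and 3.86%. Thus all 4 factors were detected in fewer treated than control cells, and positive treated cells held on average 1.03 to 1.07 UMIs of SOX17 or WT1. The share of all genes detected in fewer treated cells was not counted. The median number of genes per kept cell at full depth was itself lower, at 5433 in DMSO, 4307 in RAC1i and 4620 in Combo. At full depth PAX8 was detected in 90.6% of DMSO, 42.2% of RAC1i and 42.2% of Combo cells.

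OVGP1 was detected in 6 of 6725 thinned DMSO cells (0.0892%, 0.0327 to 0.194). The share was 5.26% in RAC1i (4.81 to 5.74) and 3.93% in Combo (3.50 to 4.40). At full depth the shares were 0.372%, 19.5% and 16.6%. No thinned cell held more than 2 OVGP1 UMIs. Among the surface antigens, MUC16 was detected in 40.8%, 17.3% and 16.2% of cells, MSLN in 29.4%, 16.6% and 18.5%, and FOLR1 in 19.4%, 10.2% and 9.33%. WFDC2 was found in 99.2%, 98.2% and 97.4% and SLPI in 90.9%, 93.2% and 92.1%, so that nearly every cell of each library kept a UMI of these genes. Free RNA can give a UMI to a cell that does not express a gene. With only OVCAR3 cells in each library there was no cell type lacking the genes in which to measure it, and its part in the shares was not tested.

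**Figure D3:**
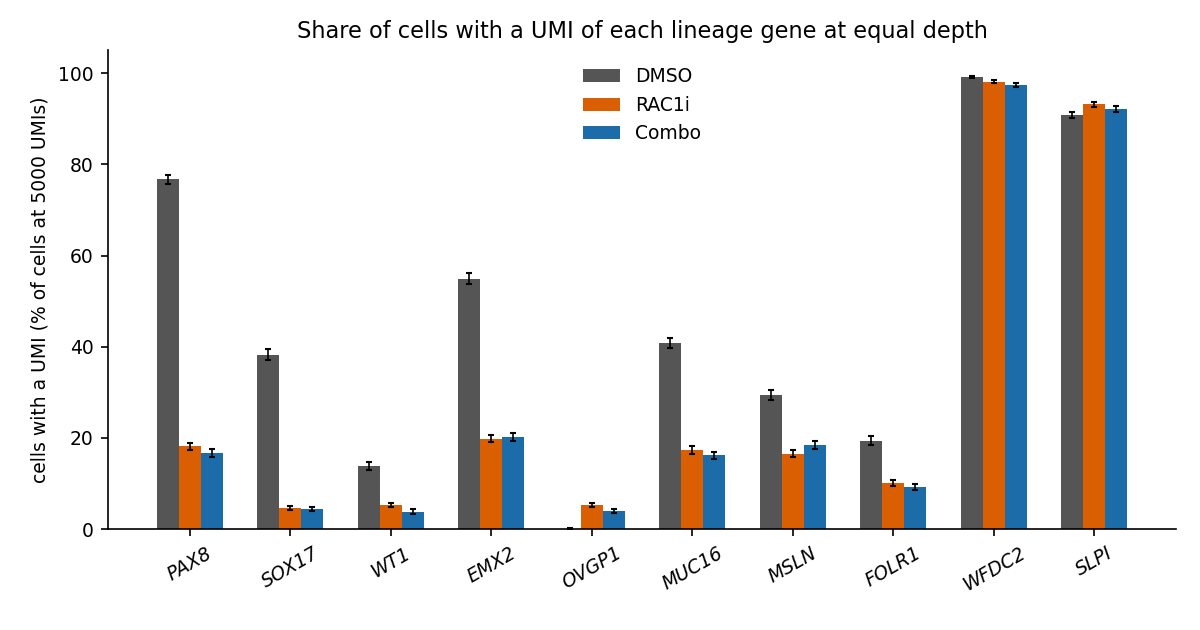
Share of cells with at least 1 UMI of each gene, in percent of cells thinned to 5000 UMIs, for DMSO, RAC1i and Combo, with exact 95% Clopper-Pearson intervals (counting error). PAX8 is at 76.7% in DMSO against 18.2% and 16.7% in the treated libraries, OVGP1 is near 0 in DMSO, and WFDC2 and SLPI are above 90% everywhere.

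The number of the 10 genes detected per thinned cell had a median of 5 in DMSO and 3 in both treated libraries, with 4.63, 2.89 and 2.83 on average. Such counts per cell were not taken for other sets of genes, so they have no background beside them. Cells without a UMI of any of the 4 factors made up 6.53% of the DMSO library but 60.8% of RAC1i and 62.2% of Combo. Cells with at least 3 of the factors were mostly in DMSO, where 20.4% had 3 and 3% had all 4, whereas 0.739% of RAC1i and 0.544% of Combo cells had 3. All 4 were found together in 202 DMSO cells, 3 RAC1i cells and 0 of 7354 Combo cells, which allows a share of cells with a UMI of all 4 at this depth of up to 0.0408% (3 cells).

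**Figure D4:**
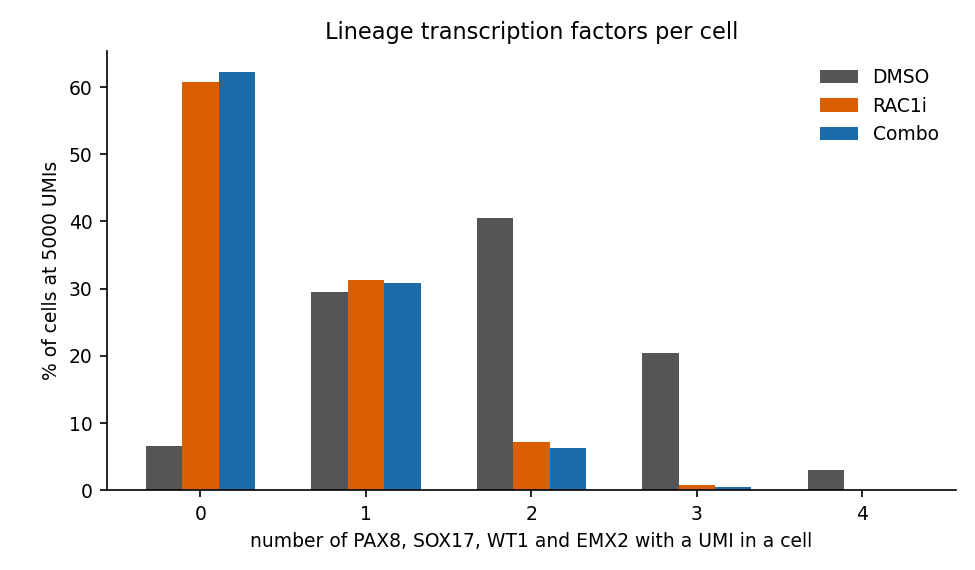
Share of cells, in percent of cells thinned to 5000 UMIs, by how many of PAX8, SOX17, WT1 and EMX2 had a UMI, for DMSO, RAC1i and Combo. The most frequent class is 2 factors in DMSO (40.5%) and 0 factors in RAC1i (60.8%) and Combo (62.2%).

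How unevenly a gene was spread over cells was measured as the variance over the mean of thinned counts, which is near 1 when molecules fall on cells at random. SLPI was the most uneven in DMSO, with a value of 10.4 and up to 201 UMIs in a thinned cell, and the 10% of cells with the most SLPI held 37.7% of its UMIs. In RAC1i and Combo the values were 6.54 and 6.66, and the highest cells held 156 and 84 UMIs at almost the same mean. WFDC2 was at 3.73, 3.78 and 3.93. PAX8 went from 1.32 in DMSO to 1.60 in RAC1i and 1.48 in Combo while its mean was lower. Among genes within 1.5-fold of its level, PAX8 was more uneven than 77.4% in DMSO, 99.2% in RAC1i and 98.8% in Combo. OVGP1 was close to random, with 1.02 in RAC1i and 1.03 in Combo, and was more uneven than 42% and 48% of genes of like level.

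Co-expression was described by the number of cells with a UMI of both genes over the number given by the product of their shares, and by Pearson's r over thinned cells of log2(UMIs + 1). Cells of a library share its free RNA, they differ in depth before thinning, and r is lowered by sparse counts. Over all pairs with at least 20 expected cells, the median of observed over expected was 1.03 in DMSO and 1.01 in each treated library. Pairs with WFDC2 or SLPI, which were in over 90% of cells, cannot go far from 1. The other pairs ranged from 1.01 to 1.19 in DMSO (21 pairs), from 0.757 to 1.52 in RAC1i (28 pairs) and from 0.703 to 1.41 in Combo (25 pairs). The pair with the highest r was WFDC2 and SLPI, at 0.307 in DMSO, 0.389 in RAC1i and 0.408 in Combo. A higher r in the treated libraries was not particular to this pair of the WAP cluster. WFDC2 and the cytokine gene MIF were at 0.157 in DMSO, 0.273 in RAC1i and 0.313 in Combo. SLPI and CLU, the gene of clusterin, went the other way, at 0.400, 0.249 and 0.258. SLPI and MUC16 had an r of 0.189 in DMSO but 0.0812 in RAC1i and 0.0398 in Combo. These values moved with depth, to 0.130, 0.0259 and -0.02 at 2500 UMIs per cell and 0.226, 0.137 and 0.0966 at 10000.

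Among the lower genes, PAX8 and MUC16 were found together in 426 RAC1i cells against 290 given by their shares (1.47-fold) and in 280 Combo cells against 199 (1.41-fold), while the value in DMSO was 1.06. Their r did not rise in the same way, at 0.134 in DMSO, 0.135 in RAC1i and 0.0980 in Combo. At 10000 UMIs per cell it was 0.149, 0.202 and 0.164. PAX8 and EMX2 were at 1.02 in DMSO, 1.25 in RAC1i and 1.29 in Combo. SOX17 and EMX2 were at 1.03, 1.52 and 1.21, and WT1 and EMX2 at 1.05, 1.46 and 1.15. Some other pairs of the 7 lower genes were below 1, down to 0.813 in RAC1i and 0.717 in Combo for WT1 and FOLR1. In all, 21 of 21 such pairs were above 1 in DMSO, 16 of 21 in RAC1i and 15 of 20 in Combo, with medians of 1.04, 1.11 and 1.11. Pairs of other genes of like level were not counted, so whether these counts are particular to the lineage was not tested. Several of these values moved with depth. At 10000 UMIs per cell, SOX17 and EMX2 were at 1.24 in RAC1i and 1.04 in Combo, and WT1 and FOLR1 at 1.01 and 0.866. All 5 RAC1i pairs and 3 of the 5 Combo pairs that had been below 1 were then above it, and the counts above 1 were 20 of 21 in DMSO, 18 of 21 in RAC1i and 16 of 20 in Combo. A value cannot go far above 1 where a gene is in most cells, as PAX8 is in DMSO. OVGP1 and PAX8, in contrast, were together in 70 RAC1i cells against 88.0 given by their shares (0.796) and in 34 Combo cells against 48.3 (0.703). PAX8 was detected in 14.5% of OVGP1-positive RAC1i cells (11.5 to 17.9) and 18.4% of the others (17.6 to 19.2), and in 11.8% (8.29 to 16.1) against 16.9% (16.1 to 17.8) in Combo. The intervals overlapped slightly in RAC1i and adjoined at 16.1% in Combo, and r between them was -0.03 in both. At 10000 UMIs per cell r was -0.07 in both, and observed over expected was 0.689 in RAC1i and 0.655 in Combo. At 2500 UMIs it was 0.631 in RAC1i, and Combo had too few expected cells.

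**Figure D5:**
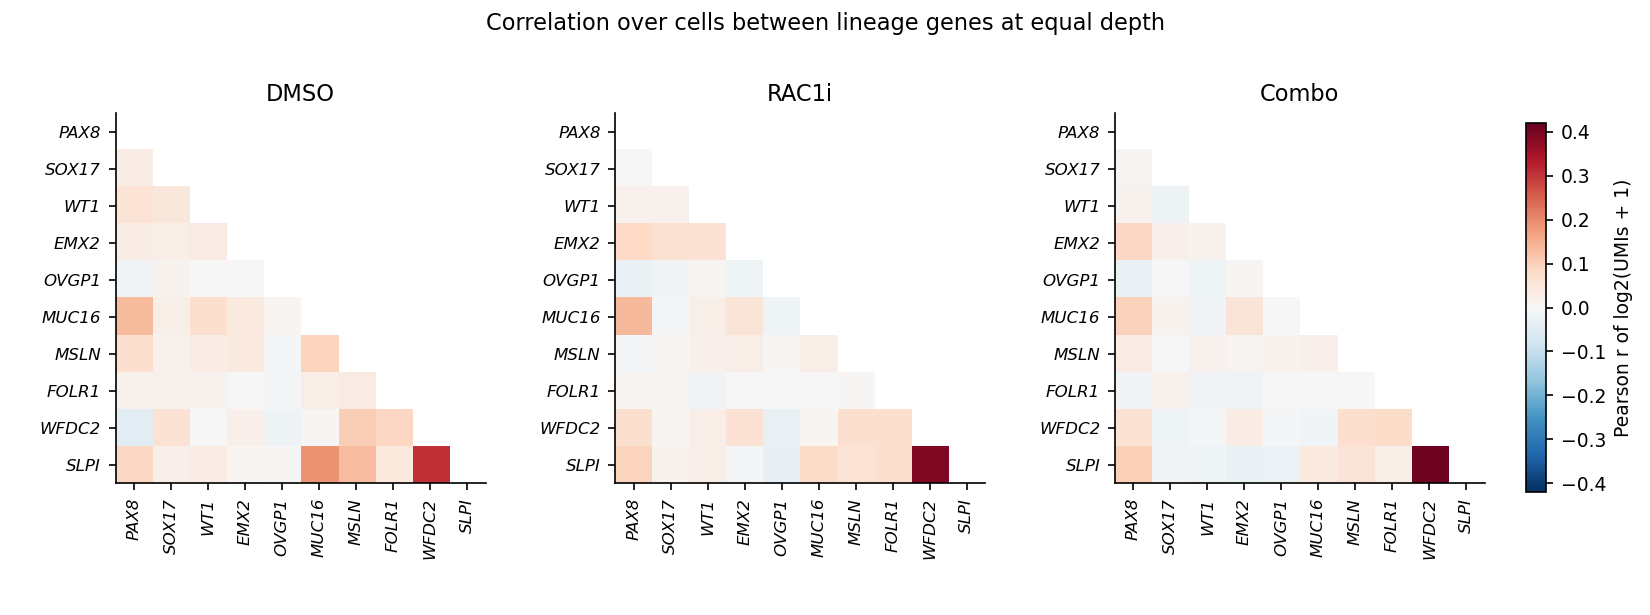
Pearson's r over thinned cells of log2(UMIs + 1) for each pair of the 10 genes in DMSO, RAC1i and Combo, on a colour scale from blue (negative) to red (positive). WFDC2 and SLPI stand out in each library at 0.307 to 0.408, PAX8 and MUC16 are at 0.0980 to 0.135, and all pairs with OVGP1 are near 0.

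Genes whose counts over cells were most like each member were searched among 2143 genes with at least 50 CPM in every library, by the mean r over the 3 libraries, for the 7 members detected in at least 20% of thinned cells of any library. PAX8 was most like NEAT1 (mean r 0.219) and MALAT1 (0.191), which encode long noncoding RNAs retained in the nucleus. MUC16 was most like MALAT1 (0.199) and MT-CO1 (0.199), and EMX2 most like MT-ND2 (0.114) and MT-ND3 (0.112), the MT genes being encoded by the mitochondrial genome. WFDC2 and SLPI were most like each other (0.368), followed by the cytokine gene MIF (0.248) for WFDC2 and by CLU (0.302), the gene of the secreted chaperone clusterin, for SLPI. MSLN was also most like CLU (0.130), followed by CYBA (0.113), which encodes a subunit of NADPH oxidase. For SOX17 the highest values, the repressor ID1 at 0.0392 and the immediate early gene IER2 at 0.0381, were close to 0.

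Levels were also taken within tertiles of cells by their mitochondrial share, which was larger in DMSO cells. Its part in the differences between libraries was not tested. PAX8 was at 285, 359 and 396 CPM from the lowest to the highest tertile in DMSO, and at 34.2, 47.7 and 103 CPM in RAC1i and 29.6, 50.7 and 80.9 CPM in Combo. The median mitochondrial share was 1.14% in the lowest DMSO tertile and 3.77% in the highest RAC1i tertile. MUC16 was at 79.6, 136 and 176 CPM in DMSO and 32.7, 40.4 and 68.2 CPM in RAC1i. OVGP1 ran the other way, at 13.0, 9.86 and 7.42 CPM in RAC1i and 9.08, 6.84 and 6.70 CPM in Combo. SOX17 stayed between 103 and 110 CPM over the DMSO tertiles and between 8.52 and 12.8 CPM over those of RAC1i. Across tertiles by UMIs per cell, PAX8 was 293 to 372 CPM in DMSO and 40.6 to 61.0 CPM in RAC1i, where it was highest in the deepest cells. Other genes ran the other way with depth. From the shallowest to the deepest tertile, EMX2 was at 72.0, 45.9 and 41.6 CPM in RAC1i. In Combo, MUC16 was at 61.7, 37.3 and 33.4 CPM and OVGP1 at 11.8, 8.37 and 6.66 CPM.

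The proliferation genes MKI67 and TOP2A were 2.69-fold and 2.17-fold lower in RAC1i than in DMSO. Cells with a UMI of either made up 52.3% of thinned cells under DMSO, 31.1% under RAC1i and 32.0% under Combo. PAX8 was detected in 77.1% of DMSO cells with such a UMI and 76.4% of those without, and in 19.8% and 17.4% of RAC1i cells. OVGP1 was detected in 1 of 3514 DMSO cells with such a UMI and 5 of 3211 without, against 5.13% and 5.32% of RAC1i cells and 4% and 3.9% of Combo cells. The part of proliferation in the differences between libraries was not tested.

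Further genes of the lineage, listed with earlier results of these data known, were described in the same way. Of 12 other Müllerian and secretory transcription factors, 8 were at 10 CPM, of which 2 were past 2-fold higher in RAC1i and 3 lower, beside 13.1% higher and 24.6% lower over all genes tested. ELF3, an epithelial ETS factor, was at 181 CPM in DMSO, 524 in RAC1i and 456 in Combo, and MECOM, which is often amplified in ovarian cancer, at 68.8, 18.0 and 17.3 CPM. TEAD1, the DNA-binding partner of YAP, was 2.37-fold higher in RAC1i but 1.89-fold in Combo, which left ELF3 as the only 1 past 2-fold higher there against 11.8% of all genes. LHX1, a factor of early urogenital development, and the homeobox gene MEIS1 were past 2-fold lower in RAC1i. MEIS1 reached 10 CPM only in DMSO, where it was high, so the limit favoured its call. PAX2, a paralog of PAX8 in the same tissues, had 2 UMIs in DMSO, 25 in RAC1i and 26 in Combo, at most 0.122 CPM.

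Of 15 other secretory products and surface proteins, 10 were at 10 CPM, and 5 of these were past 2-fold lower in RAC1i and 0 higher, beside the same 24.6% and 13.1%. CP, the copper carrier ceruloplasmin, had the lowest ratio of RAC1i to DMSO, at 338, 60.9 and 48.2 CPM, and CLDN4, a claudin of tight junctions, was at 111, 103 and 110.2 CPM. Among these lower genes, MUC20 reached 10 CPM only in DMSO, where it was high. Of 5 folate genes at 10 CPM, 3 were past 2-fold lower in RAC1i beside 24.6% of all genes tested, with the lowest ratio for SLC19A1, the reduced folate carrier, at 13.1, 4.19 and 4.55 CPM. SLC19A1 and FPGS, another of the lower folate genes, reached 10 CPM only in DMSO. The limit itself therefore favoured these lower calls. The highest was that of GGH, which trims folate side chains, at 45.0, 32.8 and 34.3 CPM. The 3 antisense genes described above were all past 2-fold lower in RAC1i, beside the same 24.6%. All 3 reached 10 CPM only in DMSO, where they were high. Of the 9 markers of ciliated fallopian cells, CAPS and RSPH1 were above 10 CPM in DMSO and none in the treated libraries. FOXJ1, the defining factor of ciliated cells, was at 0.0553, 0.238 and 0.362 CPM.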

How the data were processed

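Single cells of 3 OVCAR3 libraries (DMSO, RAC1i, Combo) were analysed. The whole-number UMI counts per gene and barcode were deposited by the authors, who made them with Cell Ranger 4.0.0 on GRCh38 per the submitters' processing notes, without normalization. The EZH2i library was not analysed here. Doses follow the study's methods. Kept cells held 96.0%, 92.2% and 88.5% of UMIs. Doublets were not called, and the alternative without the 5% of cells with the most UMIs addresses them in part. CPM of summed UMIs were compared with exact Poisson, conditional and Clopper-Pearson intervals (SciPy 1.17.1), with no pseudocount. A count of 0 was set to a floor of 3 UMIs for ratios. Members and gene lists were chosen with earlier results of these data known. All members were named, with the highest and lowest gene at 10 CPM of each other list and the 2 genes most like each member. TEAD1, LHX1, MEIS1, PAX2, MUC20, FPGS, FOXJ1, CD14, EMX2OS and the epithelial markers other than the highest and lowest were named outside this rule, after their values were seen. GENCODE 44 held 36366 of 36601 identifiers (99.4%). Alternatives were other cell limits, TMM (edgeR 4.0.16), size factors (DESeq2 1.42.0), thinning, the mean over cells, a total that leaves out mitochondrial genes, 1 CPM added, no minimum CPM and 1.5-fold. The calculations were tested on simulated data.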

Additional observations from a re-analysis of the deposited data

How the results depend on the processing

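No member changed direction in RAC1i over DMSO under the 9 alternatives tried on its ratio. PAX8 stayed between -2.77 and -2.59 on the log2 scale, SOX17 between -3.53 and -3.19 and OVGP1 between 3.35 and 6.55. The count of members past 2-fold lower was 6 or 7 in every setting, MSLN being the 1 that crossed 2-fold, under the mean over cells for RAC1i and under TMM, DESeq2 size factors, the mean over cells and thinning for Combo. In Combo over DMSO the ratio of SLPI, near 0, took the other sign under 3 alternatives. In the same comparison the log2 ratio of MUC16 went from -1.86 to -1.25 under the mean over cells. That of OVGP1 went from 5.78 to 2.94 with 1 CPM added. Size factors of DESeq2 moved the median log2 ratio of all genes from -0.20 to -0.07 in RAC1i over DMSO and from -0.18 to -0.04 in Combo over DMSO. In Combo over RAC1i, WFDC2 turned to 0.00 (0.00238) under TMM and MUC16 to 0.0468 under the mean over cells, EMX2 went from -0.03 to 0.00949 under thinning, and the cause was not tested.

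With no minimum CPM, genes past 2-fold numbered 7270 higher and 8421 lower in RAC1i over DMSO, 6881 and 8301 in Combo over DMSO, and 2359 and 2276 in Combo over RAC1i, and OVGP1 made 1 member higher in Combo over DMSO, since many more scarce genes were counted. At 1.5-fold, 1992 genes were higher and 3236 lower in RAC1i over DMSO, 1862 higher and 3094 lower in Combo over DMSO, and 13 higher and 36 lower in Combo over RAC1i. The count higher in Combo over RAC1i, 2 genes, became 4 with every deposited barcode and with TMM, 5 with the mean over cells, 6 with thinning and 1 with 1 CPM added, and the count lower became 2 with thinning. The DMSO level of OVGP1 rests on 28 UMIs. No paired analysis was possible because each condition was 1 library.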

Other observations

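The barcodes that the limits on cells left out were not free of these genes. In CPM on a total without mitochondrial genes, MUC16 was at 395 in the left-out DMSO barcodes against 146 in kept DMSO cells, and PAX8 at 654 against 378. In RAC1i and Combo the left-out barcodes held less PAX8 than kept cells, 33.4 against 55.3 and 29.2 against 48.7. OVGP1 had 8 UMIs in the left-out DMSO barcodes, 1.67 CPM against 0.150 in kept cells, and 13.3 against 10.8 in RAC1i. SOX17 and SLPI were at nearly the same level in both, with 106 against 113 and 1321 against 1378 in DMSO.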
